A study of Homo sapiens with 22 samples.

Results

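RNA-seq libraries of RWPE1 cells engineered to carry wild-type NKX3.1 were compared with libraries of the same line carrying an empty vector. RWPE1 is an immortalized human prostate epithelial line. The NKX3.1 group held 6 libraries and the Vector group held 6, and by their titles all 12 came from paraquat-treated cells. Paraquat is a redox-cycling herbicide that produces superoxide in cells. The empty vector was an altered pTRIPZ. The labels give neither a paraquat dose or time nor whether a group was 1 clone, a pool or separate cultures, so each p-value reflects the variation among these libraries alone, part of which may be technical. No untreated library was part of the comparison. The remaining 10 of the 22 libraries carried the NKX3.1 forms R52C (6) and T164A (4), and they serve below only as measures of RNA composition. The comparison covered the 19735 genes above a log2 level of 3 in at least 4 of the 12 libraries, out of 49149 named genes in the table. Levels are the deposited log2 normalized values, and a change is the NKX3.1 mean minus the Vector mean on that scale.

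NKX3.1 is a homeobox protein that binds DNA in the luminal cells of the prostate. It is often lost early in prostate cancer. Luminal cells secrete prostate proteins such as KLK3 (prostate-specific antigen), while basal cells rest on the basement membrane and express TP63 and basal keratins. The study's title places NKX3.1 at mitochondria, the organelles in which paraquat also generates superoxide.

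The RNA composition of the libraries differed between the groups. Among 74 genes abundant in R52C libraries (mean of at least 8) and under 3 in every T164A library, 57 had all 6 NKX3.1 libraries above all 6 Vector libraries, as 13.1% of all genes tested did. The ratio of these genes to the R52C mean at which most of them lay is named the R52C-like share here. This share was 24.4% to 30.7% in NKX3.1 libraries (mean 26.8 ± 2.39, SD, n = 6) and 4.91% to 9.99% in Vector libraries (7.15 ± 1.64, n = 6). The difference of 19.6 percentage points had a two-sided exact permutation p of 0.0021645, the smallest that 6 against 6 libraries can give. The share was known from earlier results of these data to differ, so this p describes a difference already seen. If these shares are taken as fractions of the RNA, a gene absent from R52C would change by -0.34 between the groups through them alone.

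**Figure D1:**
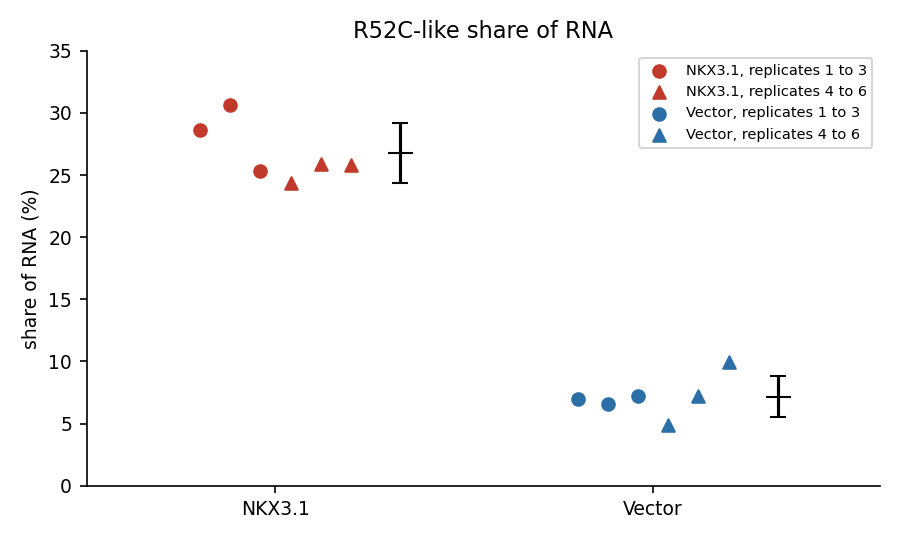
R52C-like share of RNA (vertical axis, %) in each NKX3.1 and Vector library; circles are replicates 1 to 3, triangles replicates 4 to 6, and bars mean ± SD (n = 6). The NKX3.1 libraries lie between 24.4% and 30.7%, above every Vector library (4.91% to 9.99%).

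The Vector libraries also fell into separate sets. Replicates 1 to 3 and replicates 4 to 6 did not overlap for 36.1% of genes tested in Vector, while the same split gave 14.4% in NKX3.1. For 286 genes the sets of Vector lay at least 1 apart on the log2 scale, and in NKX3.1 for 42. The labels name no difference between the sets. Changes as deposited that moved by more than 1.5 times or lost their call with the set are given below against replicates 1 to 3 (the first set) and replicates 4 to 6 (the second set) of Vector. R52C profiles were also subtracted: each library's linear value less its share of the R52C mean, rescaled to the remaining RNA, for the 14760 genes that kept at least 50% of their signal in all 12 libraries. The R52C libraries carry a form of NKX3.1, so subtraction would also remove a response shared by wild-type NKX3.1 and R52C. Such a response and a share of R52C-like RNA cannot be told apart here. The fits took the estimated shares as free of error.

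Summed markers of prostate cell types also differed between the groups, and the part of the shares in this was not tested. The summed level of all 24 luminal markers was 16.77 to 16.95 in NKX3.1 libraries and 15.77 to 16.10 in Vector libraries, with 18.23 to 18.25 in R52C. For the 20 basal markers it was 17.81 to 17.95 in NKX3.1 libraries and 18.11 to 18.36 in Vector libraries, with 14.28 to 14.36 in R52C. The 22 squamous markers summed to 17.26 to 17.46 in NKX3.1 libraries and 17.62 to 17.66 in Vector libraries, with 9.11 to 9.63 in R52C. All luminal, basal and squamous markers averaged above the floor of 3 in both groups. Of 12 immune markers 8 averaged under 3 in NKX3.1 libraries and 7 in Vector libraries, PTPRC and CD3E among them in both. Of 7 endothelial markers 5 averaged under 3 in NKX3.1 libraries and 6 in Vector libraries (CDH5 and KDR in both), and of 11 fibroblast markers 7 and 8 (COL1A2 and COL3A1 in both). Other members of these lists were well above the floor. The immune markers CD68, CSF1R and CD14 averaged 8.99, 7.42 and 5.76 in NKX3.1 libraries and 9.04, 7.61 and 6.14 in Vector libraries. The fibroblast markers COL1A1 and COL5A1 averaged 10.56 and 10.78 in NKX3.1 libraries and 10.67 and 11.24 in Vector libraries. In bulk RNA, more cells of a type and more RNA per cell of that type cannot be told apart.

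Across all genes, 43.7% were called at an adjusted p under 0.05 (limma with Benjamini-Hochberg adjustment, n = 6 each): 4034 were higher (20.4%) and 4582 lower (23.2%) in NKX3.1 libraries. The rises were larger, with a median size of 0.43 against 0.26 for the falls, and 866 genes rose at least 2-fold where 19 fell as far. After a shift of all libraries to the same median, 3163 genes were higher and 6588 lower, so that rises made up 32.4% of calls in place of 46.8%. Of the 1910 genes tested that were under 3 in every R52C library, 5 rose and 565 fell, with a median change of -0.29. Against each set of Vector taken alone, 3052 genes (15.5%) were higher against both and 3016 (15.3%) were lower against both.

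**Figure D2:**
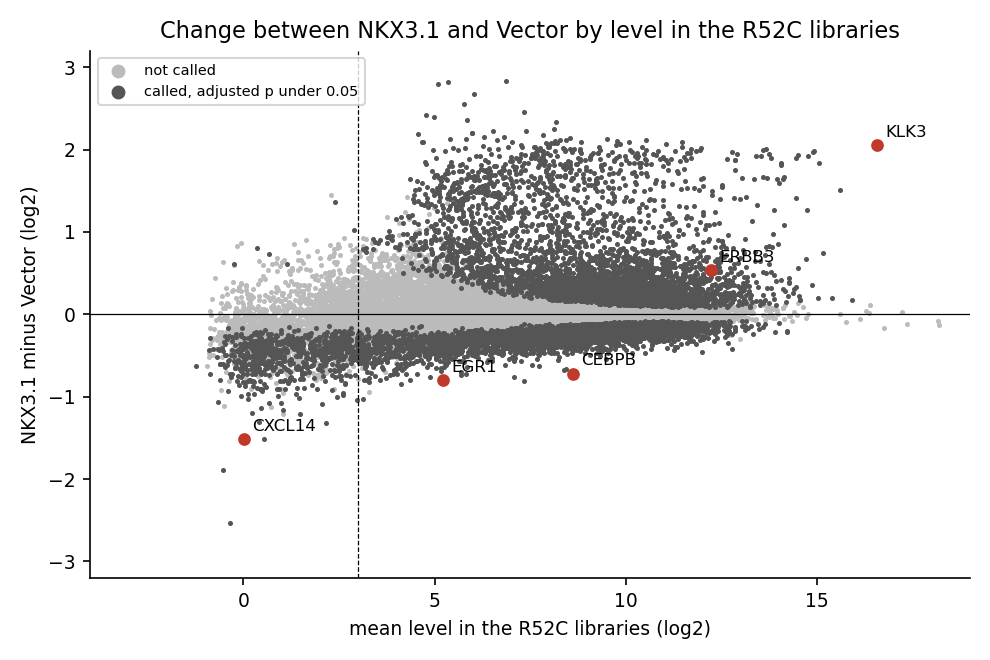
Change between NKX3.1 and Vector (vertical axis, log2) by mean level in the R52C libraries (horizontal axis, log2) for 19735 genes; dark points were called at an adjusted p under 0.05, red points are genes named in the text, the dashed line marks a level of 3, and 1 gene lies outside the axes. Among genes under 3 in every R52C library 5 rose and 565 fell.

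After the R52C profile was subtracted, 1287 of 14760 genes were called (8.72%), 198 higher (1.34%) and 1089 lower (7.38%). The same 14760 genes held 962 rises and 4563 falls as deposited. Of the genes called after subtraction, 85 rises and 705 falls had the same call as deposited, and 25 had the opposite call. When the subtracted libraries were also shifted to the same median, 482 genes were higher and 315 lower, so that rises made up 60.5% of calls in place of 15.4%. Against Vector replicates 1 to 3 alone, 257 genes were higher and 515 lower, and against replicates 4 to 6 alone 1162 were higher and 2844 lower. There were 72 genes higher against both sets (0.488%) and 294 lower against both (1.99%). These shares, and those as deposited given above, are the background for the counts of gene lists below.

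Prostate luminal and androgen-regulated genes were among the largest rises. Of 24 tested, 20 rose and 2 fell, with a median change of 1.83 beside -0.03 over all genes, and 20 were higher and 2 lower against both sets of Vector. KLK3, a secreted protease under androgen control, was at 14.72, 14.78 and 15.02 (lowest, median, highest) in NKX3.1 libraries and 12.14, 12.82 and 13.32 in Vector libraries. The groups stood apart by more than 1, and the change was 2.05 (SE 0.12, adjusted p = 7.99e-11), a 4.15-fold difference. KLK4, its relative, rose by 2.09, the transmembrane protease genes HPN and TMPRSS2 by 2.02 and 1.98, and SPDEF, a luminal transcription factor, by 2.03. FOXA1, a pioneer transcription factor of luminal cells, rose by 1.66, and the metalloreductase genes STEAP1 and STEAP2 rose by 1.94 and 1.84.

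Other large rises were not luminal markers. They included the kinesin gene KIF1A (2.07), PLEKHB1 (2.01), LCP1, which encodes the actin-bundling plastin of leukocytes (1.99), and PPFIA2, which encodes a liprin of synapses. MAGE genes, normally confined to germ cells and expressed in some cancers, rose in 9 of 10 tested and fell in 1, with a median of 1.45. MAGEA12 had a change of 1.99 and MAGEA10 of 1.86, although reads may be shared among these near-identical genes. KLK3 stood at 27.5% to 33.8% of its R52C level in NKX3.1 libraries and at 4.60% to 10.4% in Vector libraries. KLK3 averaged under 3 in T164A libraries, a trait of the genes that set the share, so its ratios are no check on the shares. After subtraction 4 of the luminal genes and 1 MAGE gene kept enough signal to be tested. None of them was called higher, and 1 luminal gene was called lower.

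Basal genes were lower. Of 20 tested, 17 fell and none rose (limma, adjusted p), with a median of -0.38, where 23.2% of all genes fell. Against both sets of Vector 15 fell, where 15.3% of all genes did. TP63, the transcription factor that maintains basal identity, was at 11.94 to 12.02 in NKX3.1 libraries and 12.28 to 12.58 in Vector libraries. Every NKX3.1 library was below every Vector library, and the change was -0.37 (SE 0.04, adjusted p = 9.64e-07). Taken as fractions of RNA, the shares would give -0.34 for a gene absent from R52C, and their part in this fall was not tested. ITGA3, an integrin chain that binds laminin, fell by 0.40, KRT15, a basal keratin, by 0.44, and CAV1, the coat protein of caveolae, by 0.68 (-0.36 and -0.99 against the sets). After subtraction none of the 20 basal genes fell and 2 rose, with a median of -0.04, and the change of TP63 was -0.03 (adjusted p = 0.733). This rested on the set: against Vector replicates 1 to 3 none fell and 4 rose after subtraction, with a median of 0.07, while 15 fell and 2 rose against replicates 4 to 6, with a median of -0.17.

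Basement membrane genes also depended on the set. COL4A2, a collagen chain of basement membranes, was at 9.07, 9.15 and 9.26 in NKX3.1 libraries, while Vector libraries ranged over 9.54 to 9.58 in replicates 1 to 3 and 10.13 to 10.28 in replicates 4 to 6. The change was -0.73 (SE 0.11, adjusted p = 2.7e-05), with -0.40 against the first set and -1.05 against the second. After subtraction COL4A2 was the 1 matrix gene of 24 that fell (-0.39, adjusted p = 0.0344), and against the first set its change was -0.06 (adjusted p = 0.594). COL4A1 fell by 0.65 (-0.38 and -0.93 against the sets) and COL7A1, the collagen of anchoring fibrils, by 0.42. After subtraction none of the 24 matrix genes fell and 7 rose against the first set, while 15 fell and 2 rose against the second, with a median of -0.32. As deposited 17 of 26 matrix genes fell and 3 rose. Among the rises were collagen-modifying enzymes: PLOD1, a lysyl hydroxylase, rose by 0.52 and P4HA1, a prolyl hydroxylase chain, by 0.98. PLOD1 was the 1 matrix gene called higher after subtraction, by 0.35 (SE 0.07, adjusted p = 0.00418), with 0.49 and 0.20 against the sets.

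Squamous genes differed with the set of Vector. Of 22 tested, 9 fell and 2 rose, with a median of -0.10. Against replicates 1 to 3 alone 20 fell and 1 rose (median -0.25), and against replicates 4 to 6 alone 9 fell and 11 rose (median 0.05). KRT17 fell by 0.62, KRT10 by 0.43 (-0.26 and -0.59 against the sets) and KRT6A by 0.32, and reads of KRT17, KRT6A and the SPRR2 genes may be shared with near-identical copies. SPRR3 and SPRR2A, cornified envelope proteins named here after their values were seen, went with the sets of Vector. SPRR3 was at 9.79 to 10.15 in NKX3.1 libraries and at 10.07 to 10.22 in Vector replicates 1 to 3 but 8.15 to 8.55 in replicates 4 to 6. Its change was 0.73 over all 6 Vector libraries (adjusted p = 0.0485), and -0.16 against the first set and 1.62 against the second. SPRR2A gave -0.28 and 1.54 in the same way (0.63 over all 6 Vector libraries, adjusted p = 0.0945). Leaving out any 1 NKX3.1 library or any of Vector replicates 4 to 6 raised the adjusted p of SPRR3 to between 0.0603 and 0.129. After subtraction 8 of 21 squamous genes rose and 1 fell. Against the first set 4 rose and none fell, against the second 13 rose and 5 fell, and 2 were higher against both. The gene that fell was KRT17 (-0.27, adjusted p = 0.0274), with -0.10 and -0.44 against the sets.

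Immediate early genes, which respond to growth factor and stress signals within minutes, were mostly lower. Of 33 tested, 24 fell and 2 rose, with a median of -0.41, and 21 fell against both sets. EGR1, a zinc finger transcription factor of this class, was at 10.64, 10.68 and 10.73 in NKX3.1 libraries, and in Vector libraries at 10.91 to 10.94 in replicates 1 to 3 and 11.96 to 12.07 in replicates 4 to 6. The NKX3.1 libraries were below both sets, with a change of -0.80 (SE 0.18, adjusted p = 0.00104), or -0.25 and -1.35 against the sets. FOS, a subunit of the AP-1 factor, fell by 0.76 (-0.38 and -1.14 against the sets). IER5 fell by 0.41 and KLF4, an epithelial differentiation factor, by 0.46. DUSP4, a phosphatase that dampens MAP kinase signalling, rose by 0.74.

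JUNB, another AP-1 subunit, fell more evenly. It was at 12.24, 12.42 and 12.55 in NKX3.1 libraries and 12.91, 13.06 and 13.26 in Vector libraries. The groups were fully apart, and the change was -0.66 (SE 0.06, adjusted p = 2.75e-08). After subtraction it was -0.34 (SE 0.06, adjusted p = 0.00239), with -0.20 (adjusted p = 0.0087) and -0.47 against the sets. Of 29 immediate early genes tested after subtraction, 9 fell and none rose, while 3 fell against the first set, 22 against the second and 2 against both. EGR1 was not called there (-0.46, adjusted p = 0.102), and against Vector replicates 1 to 3 its change was 0.09.

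CEBPB had the steadiest fall among the 10 largest. It encodes C/EBP-beta, a leucine zipper transcription factor of inflammatory and stress responses. Its level was 10.88, 10.93 and 11.10 in NKX3.1 libraries and 11.49, 11.67 and 11.88 in Vector libraries. The groups did not overlap, and the change was -0.72 (SE 0.05, adjusted p = 2.05e-09), with -0.61 and -0.83 against the sets of Vector. After subtraction the change was -0.44 (SE 0.05, adjusted p = 0.000171), with -0.33 and -0.56. Of 6 C/EBP family genes tested 5 fell, among them CEBPG (-0.24) and CEBPD (-0.81). CEBPD was at 7.42 to 7.90 in NKX3.1 libraries and 7.88 to 8.84 in Vector libraries, so that the groups overlapped, and its changes against the sets were -0.39 and -1.23.

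The largest fall among the better expressed genes was that of CXCL14, a chemokine of epithelia. It was at 7.44, 7.68 and 7.79 in NKX3.1 libraries, at 8.11 to 8.30 in Vector replicates 1 to 3 and at 10.07 to 10.24 in Vector replicates 4 to 6. The change of -1.51 (SE 0.31, adjusted p = 0.000504) thus held -0.56 against the first set and -2.47 against the second. After subtraction the change against the first set was -0.21 (adjusted p = 0.134, limma). The imprinted noncoding RNA H19 (-0.85 over all 6 Vector libraries) gave -0.23 and -1.46, and LGALS7B, an epithelial galectin whose reads may be shared with its copy LGALS7 (-0.81), gave -0.53 and -1.08. MSLN, which encodes mesothelin (-0.80), and the ligand gene WNT10A (-0.73) gave -0.44 and -0.39 against the first set and -1.17 and -1.08 against the second. CORO6, a coronin (-0.79), gave -0.53 and -1.05.

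**Figure D3:**
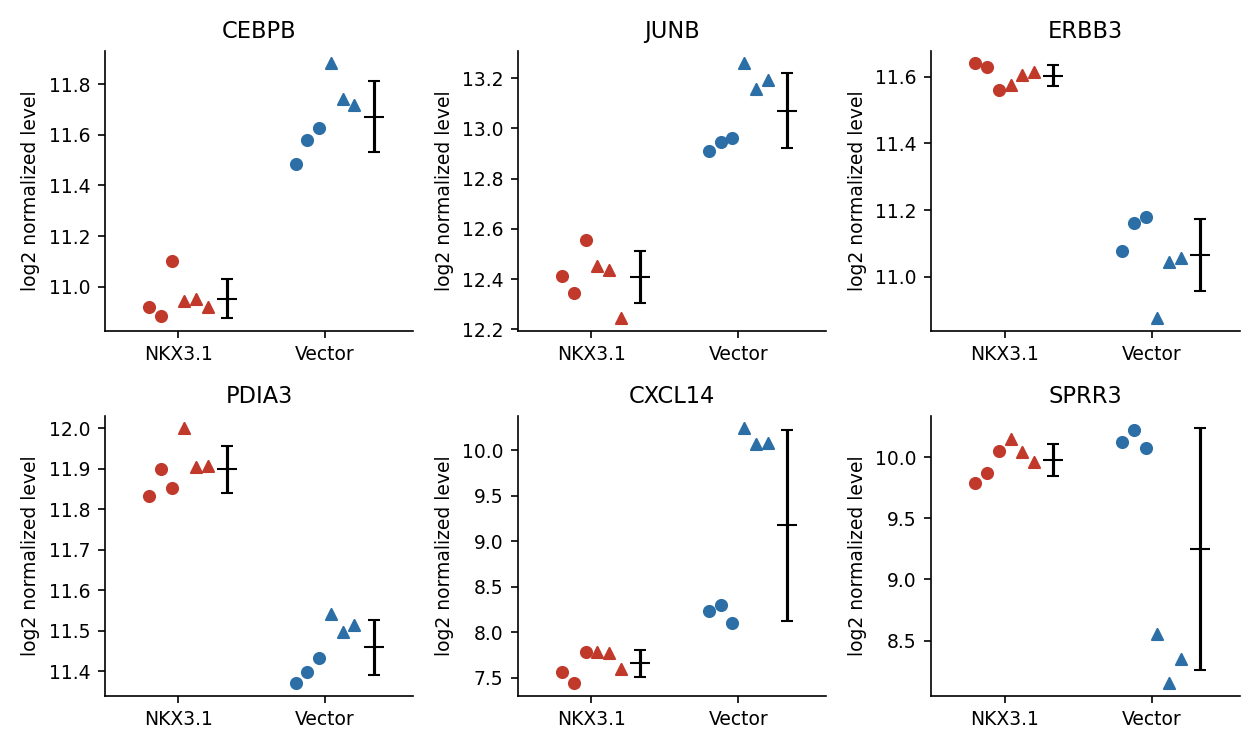
Log2 normalized level of 6 genes in each NKX3.1 library (left) and Vector library (right); circles are replicates 1 to 3, triangles replicates 4 to 6, and bars mean ± SD (n = 6). The groups are apart for CEBPB, JUNB, ERBB3 and PDIA3, while for CXCL14 and SPRR3 the sets of Vector differ by more than 1.

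A small group of genes stayed higher after subtraction. ERBB3, a receptor of the epidermal growth factor family that binds neuregulins, was at 11.56, 11.61 and 11.64 in NKX3.1 libraries and 10.88, 11.07 and 11.18 in Vector libraries. No Vector library reached an NKX3.1 library, and the change was 0.54 (SE 0.04, adjusted p = 5.97e-09). After subtraction it was 0.36 (SE 0.05, adjusted p = 0.000397), with 0.26 and 0.45 against the sets of Vector. ERBB3 stood at 62.3% to 65.8% of its R52C level in NKX3.1 libraries and at 38.7% to 47.8% in Vector libraries. Being tested after subtraction thus depended on its NKX3.1 level. TMBIM6, an endoplasmic reticulum membrane protein that limits cell death, was at 13.79, 13.82 and 13.86 in NKX3.1 libraries and 13.41, 13.43 and 13.52 in Vector libraries. Its change was 0.38 (SE 0.03, adjusted p = 1.36e-08) and 0.25 (SE 0.04, adjusted p = 0.00095) after subtraction, with 0.26 and 0.24 against the sets.

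MAN2B2, a mannosidase gene, had the largest rise of the group, 0.56 as deposited and 0.38 after subtraction (adjusted p = 0.00239, limma). The collagen-modifying gene LEPREL4 (0.39 and 0.24), LYNX1 (0.38 and 0.25), BRI3BP (0.34 and 0.22), the copper transporter gene SLC31A1 (0.34 and 0.18) and CUTA (0.33 and 0.20) also rose before and after, and against both sets of Vector. TNFRSF10A, a death receptor for TRAIL, rose by 0.35 and 0.27, and EPHX1, an epoxide hydrolase, by 0.33 and 0.18. For these last 2 genes the change after subtraction was called against Vector replicates 1 to 3 and not against replicates 4 to 6 (adjusted p = 0.101 for TNFRSF10A and 0.0678 for EPHX1).

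Falls that were called before and after subtraction and against both sets of Vector included ARL6IP6 (-0.63 as deposited and -0.43 after), the transporter gene SLC47A2 (-0.67 and -0.33), the homeobox gene IRX2 (-0.56 and -0.27) and ECHDC1 (-0.56 and -0.26). PSMC6, a proteasome ATPase subunit, fell by 0.24 and by 0.21 after subtraction, with -0.23 and -0.20 against the sets. For RND3, a small GTPase gene (-0.65 and -0.31), HOXD8 (-0.59 and -0.25), SPEG (-0.59 and -0.25) and SYT8 (-0.59 and -0.24), the change after subtraction was not called against Vector replicates 1 to 3, with adjusted p of 0.122, 0.154, 0.0846 and 0.127. With subtracted libraries shifted to the same median, HOXD8 (-0.19), SPEG (-0.19), SYT8 (-0.18) and PSMC6 (-0.15) missed the threshold (adjusted p = 0.102, 0.0565, 0.123 and 0.0529, limma), while CEBPB, JUNB and ARL6IP6 did not. Among genes under 3 in every R52C library, MMP28, a matrix protease gene, fell by 0.66 and SGCE, a sarcoglycan gene, by 0.64. In that class no gene above the median level was called higher with the groups apart.

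Genes of the endoplasmic reticulum, where secreted and membrane proteins are folded, were higher together. Of 32 chaperone and folding genes, 18 rose and 1 fell, with a median of 0.24 (background 20.4% and 23.2%), and 17 rose against both sets of Vector. The promoters of CALR (calreticulin, a calcium-binding chaperone of glycoproteins) and HSP90B1 (an HSP90 form of the reticulum) are shown because both genes are among the 4 with the smallest p and carry the endoplasmic reticulum stress element, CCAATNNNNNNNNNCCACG, where N is any base. For the interferon genes described below, IFIT1 and IFIT5 are shown with the core of the interferon-stimulated response element, GAAA followed by any 2 bases and GAAA. Each run is the 250 bases before the RefSeq start on the plus strand of GRCh38.p14, at chr19:12938359-12938608, chr12:103930160-103930409, chr10:89392373-89392622 and chr10:89414318-89414567, and capitals mark matches on either strand.
CALR: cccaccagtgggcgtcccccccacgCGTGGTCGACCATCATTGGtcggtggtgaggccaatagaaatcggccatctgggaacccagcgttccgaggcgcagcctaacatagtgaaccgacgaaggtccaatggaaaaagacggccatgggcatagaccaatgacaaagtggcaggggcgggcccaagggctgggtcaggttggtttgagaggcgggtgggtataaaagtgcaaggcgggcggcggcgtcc
HSP90B1: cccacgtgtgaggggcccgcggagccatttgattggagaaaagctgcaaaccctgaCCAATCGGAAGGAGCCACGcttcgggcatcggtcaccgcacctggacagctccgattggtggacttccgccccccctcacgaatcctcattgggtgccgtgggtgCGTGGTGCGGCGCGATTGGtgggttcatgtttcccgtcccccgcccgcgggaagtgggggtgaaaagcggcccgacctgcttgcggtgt
IFIT1: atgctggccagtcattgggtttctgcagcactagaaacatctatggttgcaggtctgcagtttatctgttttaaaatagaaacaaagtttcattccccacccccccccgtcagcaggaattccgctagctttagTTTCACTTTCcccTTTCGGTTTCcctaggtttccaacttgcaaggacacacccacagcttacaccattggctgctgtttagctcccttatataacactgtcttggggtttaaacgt
IFIT5: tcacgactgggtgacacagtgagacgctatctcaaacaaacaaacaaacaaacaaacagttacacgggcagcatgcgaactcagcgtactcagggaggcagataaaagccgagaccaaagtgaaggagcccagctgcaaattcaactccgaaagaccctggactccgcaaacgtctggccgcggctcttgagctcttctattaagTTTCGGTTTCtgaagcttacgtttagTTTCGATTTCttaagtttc

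The stress element was present in 6 of the 27 chaperone genes with a listed promoter (22.2%) and in 0.0806% of all 27305 promoters. HSP90B1 held it in 2 places, and no capital run shown overlaps a match to another motif searched. The interferon core was present in 16 of 28 interferon genes (57.1%) and in 3.07% of all promoters. The letters TAAGTA, a core bound by NKX3.1, were present in 2.76% of the promoters of genes called higher, in 3.05% of those called lower and in 2.92% of all genes tested that had a listed promoter, with 5.21% over all promoters. The cyclic AMP response element TGACGTCA and the E-box CACGTG, searched in the same way, were present in 1.77% and 6.49% of all promoters. These are matches of letters on either strand in 1 window and show no binding.

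CALR was at 13.73, 13.75 and 13.83 in NKX3.1 libraries and 12.98, 13.09 and 13.24 in Vector libraries. The lowest NKX3.1 library was above the highest Vector library, and the change was 0.67 (SE 0.04, adjusted p = 1.06e-10, limma). HSP90B1 rose by 0.56, PDIA4, a disulfide isomerase, by 0.80, and MANF, a secreted factor of the stressed reticulum, by 0.95. R52C libraries were higher still for all 4, and these genes lost more than 50% of their signal to subtraction in some library. Of the 22 chaperone genes that kept at least 50%, 2 rose and none fell. When genes that kept at least 25% were included, 7 of 30 chaperone genes rose and none fell, where 1.41% of all genes so tested rose and 9.22% fell. Those changes were 0.31 for CALR, 0.28 for HSP90B1, 0.34 for PDIA4 and 0.40 for MANF (adjusted p = 0.000194, 0.000323, 0.000699 and 0.00769, limma), and they were not run against each set of Vector.

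PDIA3, a disulfide isomerase that works with calreticulin, kept enough signal in every library. It was at 11.83 at the lowest and 11.90 at the median in NKX3.1 libraries and at 11.46 at the median and 11.54 at the highest in Vector libraries. The groups did not overlap, and the change was 0.44 (SE 0.04, adjusted p = 1.78e-08), or 0.29 after subtraction (SE 0.05, adjusted p = 0.00239) with 0.35 and 0.22 against the sets. Its pseudogene PDIA3P1, which shares sequence with it so that reads may be split between them, had a change of 0.48. Of 32 translocon and glycosylation genes 22 rose and 1 fell, among them the signal peptidase genes SEC11C (1.06) and SPCS1 (0.62) and the translocon gene SSR2 (0.49). Of 38 genes of vesicle transport 21 rose and 2 fell, among them TMED10 (0.58) and the coat gene SEC13 (0.51). After subtraction none of 19 vesicle genes rose and 1 fell, and of 19 translocon genes 5 rose and 2 fell. With the limit of 25%, none of 37 vesicle genes rose and 7 fell, and of 31 translocon genes 6 rose and 4 fell.

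Interferon-stimulated genes were lower. Of 36 tested 33 fell and 2 rose, with a median of -0.29, and 26 fell against both sets of Vector. IFIT1, which binds viral RNA, was at 9.67, 9.76 and 9.86 in NKX3.1 libraries and 10.11, 10.17 and 10.34 in Vector libraries. The groups did not overlap, and the change was -0.44 (SE 0.05, adjusted p = 2.08e-07). IRF7, a transcription factor of this response, fell by 0.42, IFI44 by 0.41 and IFIT5 by 0.48. Of 19 antigen presentation genes 14 fell and none rose, among them B2M, the light chain of class I molecules (-0.28), and HLA-F (-0.39). After subtraction 1 of 34 interferon genes fell and 2 rose, with a median of -0.02, and IFIT1 had a change of -0.11 (adjusted p = 0.126). The gene that fell was IFIT5 (-0.22, adjusted p = 0.0183), with -0.13 (adjusted p = 0.162) and -0.30 against the sets. Of the 19 antigen presentation genes 1 fell, B2M (-0.13, adjusted p = 0.0392), and 1 rose. B2M was not called against the first set (-0.10, adjusted p = 0.11) or, against all 6 Vector libraries, when the subtracted libraries were shifted to the same median (-0.07, adjusted p = 0.276, limma).

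**Figure D4:**
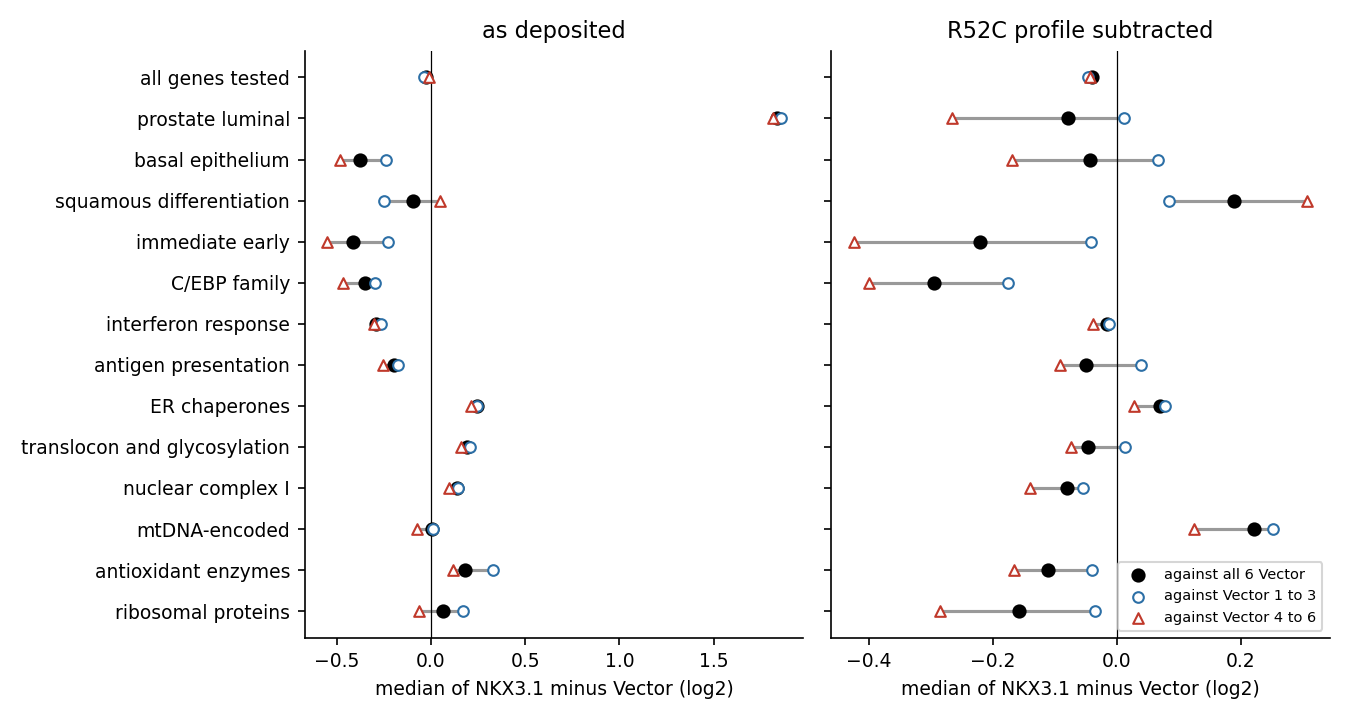
Median change of gene lists between NKX3.1 and Vector (horizontal axis, log2) as deposited (left) and after subtraction of the R52C profile (right); filled points are against all 6 Vector libraries, open circles against Vector replicates 1 to 3 and open triangles against replicates 4 to 6. The panels have different scales: the luminal median of 1.83 and the interferon median of -0.29 on the left stand beside -0.08 (4 genes) and -0.02 on the right.

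Genes encoded by mitochondrial DNA, which supply core subunits of the respiratory chain, showed small changes as deposited. Their share of all signal was 14.2% to 16.2% in NKX3.1 libraries and 15.03% to 16.9% in Vector libraries, with 6.12% to 6.66% in R52C. Of 13 genes, 2 rose and 1 fell, and the libraries of the groups overlapped for all 13. MT-ND5, a complex I subunit, was at 17.16, 17.28 and 17.33 in NKX3.1 libraries and 17.02, 17.07 and 17.22 in Vector libraries, a change of 0.18 (SE 0.05, adjusted p = 0.00851). MT-ND4L, another subunit, had a change of 0.15 (adjusted p = 0.0126), or 0.10 and 0.21 against the sets of Vector, and MT-ND3 of -0.22 (adjusted p = 0.00342, limma). The other 10 missed the threshold, with changes of 0.01 for MT-ND1, -0.10 for MT-ND2, 0.03 for MT-ND4, 0.07 for MT-ND6, 0.02 for MT-CYB, -0.08 for MT-CO1, -0.17 for MT-CO2, -0.11 for MT-CO3, -0.06 for MT-ATP6 and 0.06 for MT-ATP8.

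After subtraction 7 of the 13 rose and none fell, with a median of 0.22 beside -0.04 over all genes so tested. MT-ND5 had the largest change, 0.40 (SE 0.05, adjusted p = 0.000171), with 0.44 and 0.37 against the sets of Vector. MT-ND4L (0.35), MT-ND6 (0.31), MT-ATP8 (0.28) and MT-ND4 (0.23) also rose, against both sets too. MT-ND1 (0.24) and MT-CYB (0.22) rose against all 6 Vector libraries and against replicates 1 to 3 (0.36 and 0.32), and missed the threshold against replicates 4 to 6 (0.12 for both, adjusted p = 0.089 and 0.053). MT-ATP6 missed it against all 6 (0.16, adjusted p = 0.0773) and was called against each set. MT-CO1 (0.16), MT-CO2 (0.09), MT-CO3 (0.12), MT-ND2 (0.11) and MT-ND3 (0.03) were not called.

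**Figure D5:**
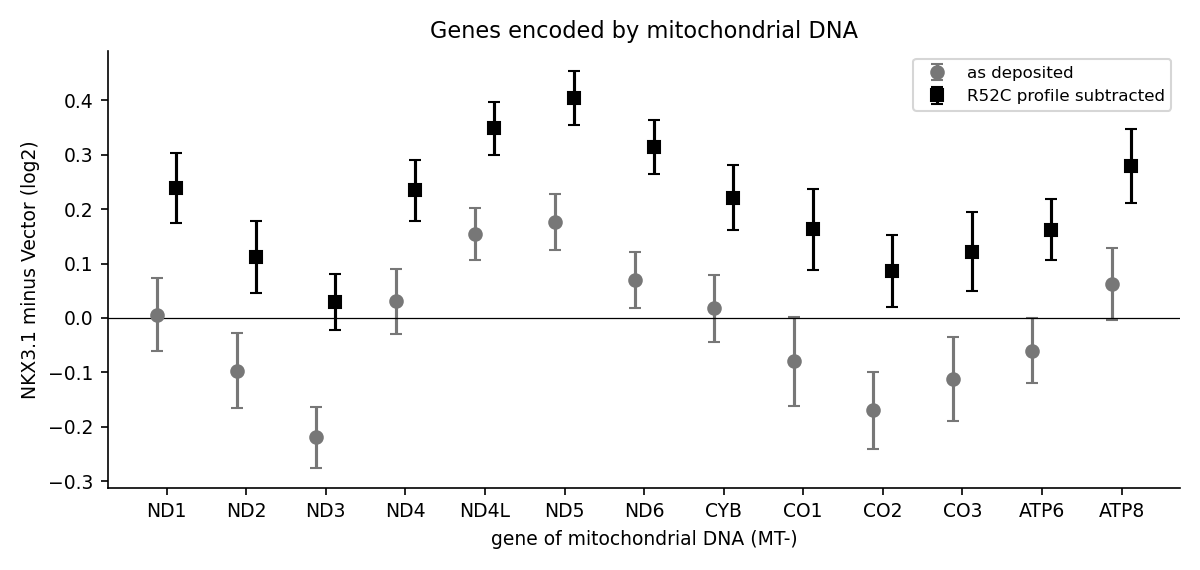
Change between NKX3.1 and Vector (vertical axis, log2, with SE) of the 13 genes encoded by mitochondrial DNA, as deposited (circles) and after subtraction of the R52C profile (squares). As deposited the changes lie between -0.22 and 0.18, and after subtraction between 0.03 and 0.40.

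More nuclear genes of complex I and of mitochondrial import rose than fell as deposited, which was not so after subtraction. Of 38 complex I genes 19 rose and 4 fell, with a median of 0.14. After subtraction none of 21 rose and 2 fell, where 1.34% of all genes so tested rose and 7.38% fell. NDUFB10 was at 10.01, 10.04 and 10.07 in NKX3.1 libraries and 9.33, 9.45 and 9.71 in Vector libraries, a change of 0.54 (SE 0.06, adjusted p = 3.03e-07) without overlap, and NDUFA7 rose by 0.71. Of 34 chaperone and import genes 17 rose and 6 fell, led by DNAJC15, a cofactor of the import motor (1.55). HSPA9, the mitochondrial HSP70 that drives import, was chosen after its values were seen: it fell by 0.23 (adjusted p = 0.0011), with -0.11 and -0.36 against the sets of Vector, and was not called after subtraction (-0.10, adjusted p = 0.242). After subtraction none of 22 import genes rose and 2 fell. Genes that replicate and transcribe mitochondrial DNA leaned the other way as deposited, with 7 of 29 higher, 12 lower and a median of -0.10. After subtraction none of 23 rose and 2 fell. For each of these lists the counts given here after subtraction, against all 6 Vector libraries, lie near the shares of all genes so tested. Against the second set of Vector alone, falls were more frequent among import and replication genes than among all genes. There 10 of 22 import genes fell and none rose, and 8 of 23 replication and transcription genes fell and 1 rose. Of all 14760 genes 2844 fell there, and of 21 complex I genes 5 fell. Against the first set 1 gene fell and none rose in each list.

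Antioxidant enzymes, which remove superoxide and peroxides of the kind paraquat produces, were higher as deposited. Of 30 tested 16 rose and 5 fell, with a median of 0.18. PRDX2, a peroxiredoxin, was at 10.75 at the lowest and 10.92 at the median in NKX3.1 libraries and at 10.04 at the median and 10.32 at the highest in Vector libraries, a change of 0.82 (SE 0.06, adjusted p = 1.19e-09) without overlap. PRDX4, the peroxiredoxin of the endoplasmic reticulum, rose by 0.61 and CAT, which encodes catalase, by 0.56. Among glutathione transferases GSTT1 rose by 1.96 and GSTP1 fell by 0.53. The R52C mean was above every Vector library for the 4 genes that rose, and it was 1.66 for GSTP1, under the floor. Of 10 antioxidant genes that could be tested after subtraction none rose and 1 fell, and of 25 that kept at least 25% of their signal 1 rose and 8 fell, with a median of -0.18. The gene that rose there was PRDX4 (0.28, adjusted p = 0.00679, limma).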

How the data were processed

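RNA was measured in 12 human libraries, 6 NKX3.1 and 6 Vector, grouped by their titles. Per the labels, RNA came from a MagMAX kit, poly-A libraries were made with TruSeq reagents, and a HiSeq2000 read them. The authors deposited log2 normalized values, and how they normalized them is not stated. CASAVA 1.8.2, TopHat, Cufflinks and DESeq, with the builds GRCh37 and mm9, come from the submitters' processing notes. The table gives no read depth and thus no counting error, and the use of strand is not given in the sources used here.

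Of 56299 entries, 3473 had no symbol and were left out. The row with the highest mean was kept for a repeated symbol. Genes above 3 in at least 4 of the 12 libraries were tested, since nearly all entries that held only noise lay under 2.81. limma 3.58.1 (R 4.3.3, trended variance, two-sided) gave every adjusted p (Benjamini-Hochberg, adjusted across the whole set of tested genes, called under 0.05) and was tested on simulated data. Shares and figures used Python 3.11.15, pandas 2.3.3, numpy 2.4.6, scipy 1.17.1 and matplotlib 3.10.9. Named genes were the 10 largest rises and falls without overlap above the median level, 12 each way that were also called after subtraction, 8 each way among genes under 3 in every R52C library, up to 4 members with the smallest p from each list and the 13 genes of mitochondrial DNA. Some genes that the rule names are not reported here. Members and lists were chosen with earlier results of these data known. Promoters are from RefSeq on GRCh38.p14 and the files' build is another, so no other coordinates are given. The comparisons with each set of Vector after subtraction, the 25% limit, the shifted subtraction and other density widths for the share were chosen after seeing the data.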

Additional observations from a re-analysis of the deposited data

Results flagged for a closer look

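Within a group of 6, a library was noted where its gap to the nearest other library took up more than 0.625 of the whole range. Of 230 groups of values checked, 12 met this, where chance at about 1 in 20 gives 11.5.

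In NKX3.1 libraries, replicate 1 was high for MANF (10.01) and replicate 2 was low for ARL6IP6 (8.855). Replicate 3 was high for CEBPB (11.1), and replicate 4 was high for B2M (13.31). For CEBPB, ARL6IP6, MANF and B2M the noted NKX3.1 library still lay on the same side of every Vector library as the others.

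In Vector libraries, replicate 4 was high for TP63 (12.58), B2M (13.56) and MT-ND5 (17.22) and low for LEPREL4 (9.653). Vector replicate 6, which had the highest R52C-like share of its group (9.99%), was high for PDIA4 (11.15), GSTT1 (6.174) and AMD1 (11.39) and low for PSMC6 (9.965). The part of that share in these values was not tested.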

How the results depend on the processing

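The count of called genes kept within 1.5 times of 8616 under every other filter, fit and scaling as deposited, from 7860 with no filter to 9751 after a shift to the same median, and from 7808 to 8620 (3694 to 4072 higher, 4114 to 4548 lower) with 1 library left out. With NKX3.1 replicates 4 to 6 alone, 3047 genes were lower. Subtraction of the R52C profile tested fewer genes and called 1287 (198 higher, 1089 lower). It called 797 after a shift to the same median (482 and 315), 1894 where a remainder of 25% was enough (252 and 1642) and 1212 with shares from the median of the ratios (226 and 986). Against Vector replicates 1 to 3 it called 772 (257 and 515), and against replicates 4 to 6 it called 4006 (1162 and 2844). The difference in R52C-like share stayed between 19.1 and 20.6 percentage points under other estimates and between 18.9 and 20.2 with 1 library left out.

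Directions turned mainly after subtraction. Of the subtracted values listed here, those of MT-CO1, MT-CO3, MT-ND2 and MT-ATP6 were called and those of the other genes were not. Against Vector replicates 1 to 3 the subtracted changes were 0.0913 for EGR1, 0.116 for H19, 0.0256 for HSPA9, 0.000986 for ITGA3, 0.0797 for KRT10, 0.0424 for TP63, 0.25 for MT-CO1, 0.21 for MT-CO3 and 0.21 for MT-ND2. KRT6A gave 0.0235 with either remainder, 0.000673 and 0.0464 against the sets of Vector, 0.0873 when shifted and 0.0448 with the median of the ratios. MT-ATP6 gave 0.17 and 0.15 against the sets, 0.23 shifted and 0.18 with the median. MT-ND3 gave 0.0291 with either remainder, 0.0939 against replicates 4 to 6, 0.0928 shifted, 0.0452 with the median, and 0.0137 after quantile normalization. TP63 gave 0.0344 shifted. As deposited, SPRR3 gave -0.16 and SPRR2A -0.28 against Vector replicates 1 to 3. The cause was not tested. Of 1368 gene values with 1 library left out, 9 lost their call, all of them SPRR3, no called value changed sign, and 7 uncalled values did.

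No paired analysis was possible because the titles carry library identifiers that the groups do not share. The files give no read depth, and levels under 3 cannot be told from noise.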

Other observations

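Growth factor genes were divided. Of 17 epidermal growth factor receptors and ligands, 12 fell and 4 rose, with a median of -0.28 beside -0.03 over all genes tested. The rises included EGF, the founding ligand (1.78), LRIG1, which restrains its receptors (1.66), and ERBB3. EGF was at 7.31, 7.56 and 7.72 in NKX3.1 libraries and 5.44, 5.78 and 6.07 in Vector libraries, without overlap. It stood at 24.4% to 32.4% of its R52C level in NKX3.1 libraries and at 6.67% to 10.3% in Vector libraries. EGF and LRIG1 kept too little signal to be tested after subtraction. Of the 15 receptors and ligands that were tested there, 1 rose, ERBB3, and 2 fell. Of 37 genes of the TGF-beta and BMP pathway 23 fell and 4 rose. ID3, a BMP target that blocks DNA binding of helix-loop-helix factors, fell by 0.62, and INHBB, an activin subunit, rose by 1.70. After subtraction 5 of 34 genes of that pathway fell and none rose, with 2 falls against Vector replicates 1 to 3 and 15 against replicates 4 to 6. INHBB was not among these 34, as it kept too little signal.

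Metabolic lists leaned upwards as deposited. Of 15 polyamine genes 8 rose and 1 fell, among them AMD1 (0.82) and ODC1, the first enzyme of the pathway (0.63). Of 29 glycolysis and hypoxia genes 17 rose and 7 fell, and of 24 genes of the tricarboxylic acid cycle 13 rose and 4 fell. After subtraction none of 15 glycolysis genes was called in either direction by limma, and of 13 tricarboxylic acid cycle genes none rose and 3 fell. Of 6 polyamine genes tested there none rose and 1 fell. Of 73 cytosolic ribosomal protein genes 16 rose and 13 fell, and their median was 0.17 against Vector replicates 1 to 3 and -0.06 against replicates 4 to 6. After subtraction none of 56 rose and 17 fell, where 7.38% of all genes so tested fell. Against replicates 1 to 3 then 2 rose and 2 fell, and against replicates 4 to 6 none rose and 46 fell. With the subtracted libraries shifted to the same median, 6 fell. RPL15, whose reads may be shared with pseudogenes, rose by 0.48. Of 21 desmosome and adhesion genes 7 rose and 9 fell as deposited, with a median of -0.11, and 5 were higher and 8 lower against both sets of Vector. After subtraction 7 of 20 rose and none fell, where 1.34% of all genes so tested rose. Against both sets of Vector 4 of the 20 then rose, where 0.488% of all genes did.

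Single markers of other cell types stood above the floor. VWF, an endothelial clotting factor gene, was at 5.90 to 6.51 in NKX3.1 libraries and 3.66 to 5.47 in Vector libraries, with an R52C mean of 8.03, while the endothelial genes CDH5 and KDR averaged under 3 in both groups. PDGFRB was at 3.05 to 3.78 in NKX3.1 libraries and SOX11 at 3.49 to 4.26, and both averaged under the floor in Vector libraries, so that no size of change is given. FAP, at 3.42 to 4.44 in NKX3.1 libraries and 4.41 to 4.99 in Vector libraries, fell by 0.72, and the groups overlapped. After subtraction FAP was not called (-0.40, adjusted p = 0.242, limma).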
